A study of Mus musculus with 8 samples.

Results

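The interferon-induced transmembrane genes Ifitm1, Ifitm2, Ifitm3 and Ifitm6 and the tetherin gene Bst2 were described across the 4 groups of an RNA-seq study of mouse bone marrow-derived macrophages, which are macrophages grown from marrow precursors in culture. The genes were taken by name from the deposited expression table, which gave 5 genes of 54532, and all 5 were among the 11421 genes that passed the filter on low values. The study set spermine, a polyamine, against PBS, and each was measured before and after stimulation with interferon-β (IFN-β), a type I interferon. The 4 groups were spermine with IFN-β for 3 h, PBS with IFN-β for 3 h, spermine at 0 h and PBS at 0 h, with 2 libraries in each. Since every 3 h library also received IFN-β, the 3 h against 0 h comparisons also hold whatever 3 h in culture did. Neither the labels nor the design text state the strain or age of the mice or the doses of spermine and IFN-β. The design text speaks of DMSO and the extraction protocol of blood, whereas the labels of the samples give PBS and macrophages; the labels were followed. Whether the 2 libraries of a group stem from different mice or dishes is not stated in the labels, and p-values below measure only the spread between libraries, which may be technical. The study's title places spermine as a restraint on cytokine signalling through JAK1, the kinase bound to the interferon receptor.

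Ifitm proteins are small membrane proteins that interferons induce and that hinder the fusion of enveloped viruses with cell membranes. Ifitm3 acts mainly at endosomes and lysosomes, where it blocks viruses such as influenza A virus after they have been taken up. Tetherin acts at the other end of the viral life cycle: anchored in the membrane at both of its ends, it holds budding enveloped particles on the surface of the producing cell. Macrophages are known to express genes of both kinds, and tetherin is also a surface marker of mouse plasmacytoid dendritic cells.

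The 4 Ifitm genes lie side by side on mouse chromosome 7 and Bst2 lies on chromosome 8 (GRCm38). Ifitm2 is at chr7:140954837-140955987 on the minus strand, Ifitm1 at chr7:140967221-140969825 on the plus strand, Ifitm3 at chr7:141009586-141010770 on the minus strand and Ifitm6 at chr7:141015699-141017924 on the minus strand. The cluster spans 63088 bases, with 4928 bases between Ifitm3 and Ifitm6, the closest neighbours. Bst2 is at chr8:71534255-71537456 on the minus strand. The table annotates all 5 as protein coding.

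The stretches just before the start sites are shown because the genes were compared for their response to an interferon. They are RefSeq sequences (GRCm38.p6), printed along the gene's own strand, 250 bases up to the last base before the RefSeq start site, with capitals for matches to the core of an interferon-stimulated response element, searched on both strands as GAAA, then any 2 bases, then GAAA. For Ifitm3 the matches lie just after the start site, and only the 27 bases that hold them are shown. These are positions 2 to 28, given as the number of bases after the start-site base. Bst2 is chr8:71537473-71537722, Ifitm2 is chr7:140955962-140956211, the Ifitm3 site is chr7:141010716-141010742 and Ifitm6, the gene of the 5 whose response differed most between spermine and PBS, is chr7:141016893-141017142.
Bst2 upstream: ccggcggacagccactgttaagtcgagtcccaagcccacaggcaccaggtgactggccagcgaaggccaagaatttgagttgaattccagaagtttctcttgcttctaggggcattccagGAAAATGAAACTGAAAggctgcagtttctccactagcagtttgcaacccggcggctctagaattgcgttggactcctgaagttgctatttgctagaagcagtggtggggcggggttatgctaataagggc
Ifitm2 upstream: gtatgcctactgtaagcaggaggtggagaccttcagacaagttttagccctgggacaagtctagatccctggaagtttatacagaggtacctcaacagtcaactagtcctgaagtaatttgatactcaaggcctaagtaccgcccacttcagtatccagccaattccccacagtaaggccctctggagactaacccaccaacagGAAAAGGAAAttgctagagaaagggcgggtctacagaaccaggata
Ifitm3 site after the start: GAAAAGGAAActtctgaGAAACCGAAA
Ifitm6 upstream: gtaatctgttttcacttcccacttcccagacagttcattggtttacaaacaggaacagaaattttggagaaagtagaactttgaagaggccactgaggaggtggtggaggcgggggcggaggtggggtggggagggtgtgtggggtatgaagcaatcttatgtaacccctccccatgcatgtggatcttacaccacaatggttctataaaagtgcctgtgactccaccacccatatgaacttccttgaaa

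Bst2 held 2 matches that overlap by their GAAA, at -130 to -121 and -124 to -115, and Ifitm2 held 1 at -46 to -37. Ifitm3 held 2 matches after its start site, at positions 2 to 11 and 19 to 28. No match was found in the windows of Ifitm6 and Ifitm1, which says only that these letters are not in these windows; for both genes the RefSeq start lies inside the annotated gene, so the window does not cover the outermost annotated start. Across 32851 promoter windows of RefSeq genes, 2.98% held a match in the 250 bases before the start and 3.44% in the window that also holds the 50 bases after it. A second pattern, TTCNNNGAA, the letters of a gamma-activated site, was present in Bst2 at -136 to -128, where it overlaps the first interferon match, in Ifitm3 at 13 to 21, where it overlaps the second, and in Ifitm6 at -10 to -2. It was present in 7.02% of windows before the start and in 8.30% of the longer windows. The letters TGACNNNGC, the core of an antioxidant response element, were in none of the windows of the 5 genes, and in 10.2% of windows before the start and 12.4% of the longer windows. A match is a stretch of letters and not a site known to be bound.

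The Ifitm genes are close copies of each other, which bears on how their reads can be told apart. The coding sequences of Ifitm2 and Ifitm3 were identical at 80.9% of 408 aligned bases, and their longest shared run was 69 bases. The run is shown here because a read that lies wholly within it fits both genes.
Ifitm2 and Ifitm3 shared run: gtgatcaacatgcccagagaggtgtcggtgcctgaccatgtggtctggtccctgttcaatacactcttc
Ifitm1 was identical to Ifitm2 and to Ifitm3 at 82.1% of 318 aligned bases each, while Ifitm6 was the most distant, at 65.7% to 68.8% against the other three. Of the 50-base stretches of the main transcript, 48.5% of those of Ifitm2 also occurred in another annotated gene, against 10.0% for Ifitm3, 7.71% for Ifitm1 and 0 for Ifitm6 and Bst2. At 100 bases, 34.9% of the Ifitm2 stretches still recurred elsewhere, in the genes Gm11951, Gm45717 and Gm8865, and no stretch of the other 4 genes did. Gm45717, which overlaps Ifitm2 on the same strand, had 0 reads in all 8 libraries, and neither labels nor processing notes state how reads fitting several genes were assigned. Levels of Ifitm2 are therefore less certain than those of Ifitm6 and Bst2.

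The values are FPKM, fragments mapped to a gene scaled by its length and by a factor of the library, as the authors deposited them. Multiplied by gene length, every value was a whole multiple of a step particular to its library, within 0.001, so read numbers could be rebuilt. They totalled 15723437 to 17744844 per library. The step did not follow these totals alone. It was 43.7 in PBS 0 h replicate 1, with 17744844 rebuilt reads, and 61.9 in PBS 3 h replicate 2, with 17738013. FPKM summed to 404833 and 400534 in spermine 3 h libraries, 351671 and 345825 in PBS 3 h libraries, 316283 and 321894 in spermine 0 h libraries and 248254 and 253576 in PBS 0 h libraries, so rescaling each library to the same sum (TPM) moves every comparison. All 12 macrophage markers were at 1 FPKM or more in at least 1 library, and their summed level was 15163 to 19846 FPKM per library. Much of that sum was Lyz2, at 7799 to 9901 FPKM. By the test described below, 6 of the 12 were called higher and 1 lower with IFN-β in PBS, beside 24.6% and 25.0% of tested genes. With spermine against PBS at 0 h, 5 were called higher and 1 lower, beside 22.0% and 19.2%. Some defining markers of other cell types were at 0: Ly6g and Retnlg of neutrophils and Cd3e, Cd3d and Ncr1 of T and NK cells had 0 in all 8 libraries, and no fibroblast or erythroid marker reached 1 FPKM. The markers of T and NK cells summed to 2.65 to 4.19 FPKM, and markers of monocytes, plasmacytoid and conventional dendritic cells and endothelium, which moved with the groups, are given beside the results. In these bulk samples, fewer cells of a type and less RNA per cell cannot be told apart.

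Ifitm3 was the most abundant of the 5 genes in each group. Its level was 1628 and 1458 FPKM with spermine at 3 h, 1690 and 1628 FPKM with PBS at 3 h, 752 and 694 FPKM with spermine at 0 h and 569 and 563 FPKM with PBS at 0 h. At 3 h spermine libraries overlapped PBS libraries, and at 0 h both spermine libraries stood above both PBS libraries. Among protein-coding genes Ifitm3 ranked 24th with spermine at 3 h, 25th with PBS at 3 h, 44th with spermine at 0 h and 42nd with PBS at 0 h.

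Ifitm2, whose human counterpart also acts at endosomes, was by FPKM the second most abundant of the 5 genes at 0 h and the third at 3 h, where Bst2 passed it. Its level was 272 and 236 FPKM with spermine at 3 h, 251 and 266 FPKM with PBS at 3 h, 203 and 184 FPKM with spermine at 0 h and 180 and 169 FPKM with PBS at 0 h. The 3 h libraries all lay above the 0 h libraries, and spermine and PBS overlapped at 3 h. Ifitm1, whose human counterpart works mainly at the cell surface, was scarce in every group. It had 3.07 and 3.88 FPKM with spermine at 3 h, 6.81 and 5.54 FPKM with PBS at 3 h, 1.43 and 1.81 FPKM with spermine at 0 h and 2.55 and 1.95 FPKM with PBS at 0 h. The reads behind Ifitm1 numbered 47 and 63 with spermine at 3 h, 104 and 98 with PBS at 3 h, 26 and 36 with spermine at 0 h and 64 and 43 with PBS at 0 h, so depth limits the precision of Ifitm1 more than that of the other 4 genes.

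Ifitm6 is a mouse gene with no human counterpart and is often counted among the transcripts of monocytes and neutrophils. It had 28.9 and 28.0 FPKM with spermine at 3 h, 55.7 and 46.0 FPKM with PBS at 3 h, 17.9 and 16.5 FPKM with spermine at 0 h and 14.1 and 12.7 FPKM with PBS at 0 h. Its 4 groups did not overlap in any pair, and PBS 3 h libraries stood highest. Bst2 had 500 and 456 FPKM with spermine at 3 h, 410 and 461 FPKM with PBS at 3 h, 174 and 177 FPKM with spermine at 0 h and 127 and 146 FPKM with PBS at 0 h. Spermine and PBS overlapped at 3 h and did not at 0 h.

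**Figure D1:**
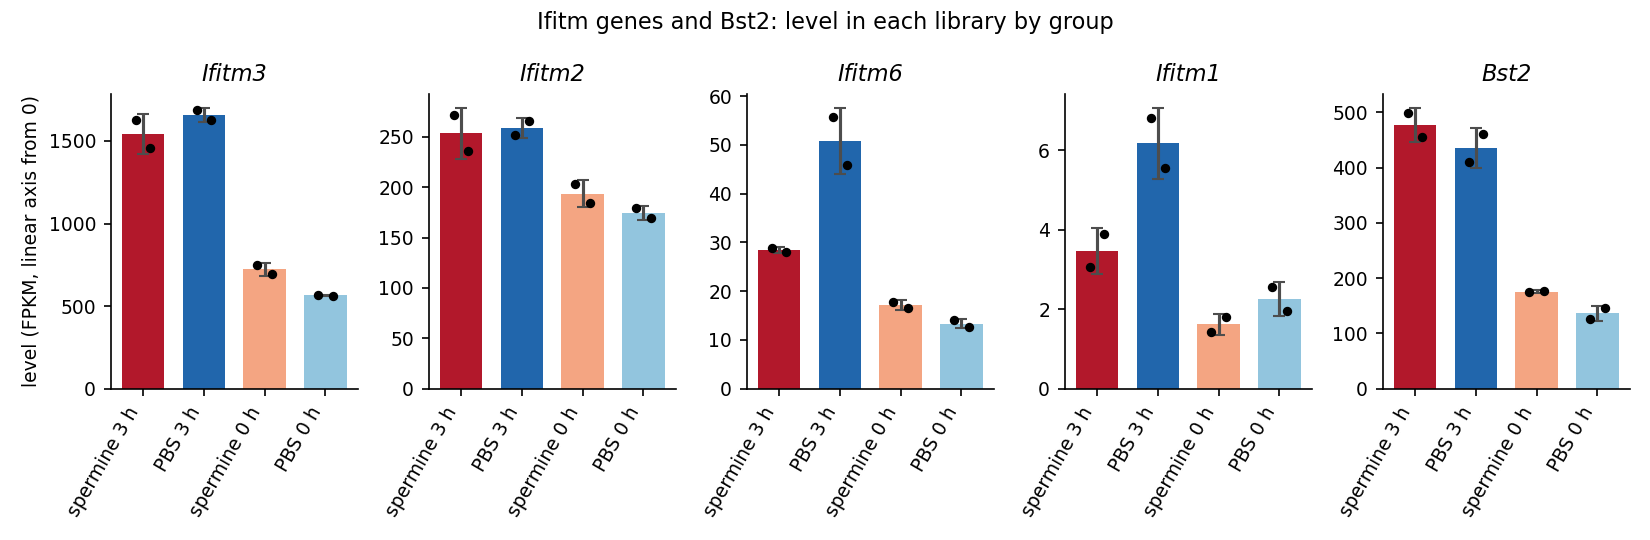
Level of each gene in FPKM (linear axis from 0, each panel with its own scale) in spermine 3 h, PBS 3 h, spermine 0 h and PBS 0 h macrophages; points are the 2 libraries of a group, bars their mean and error bars the SD. For Ifitm3, Ifitm2 and Bst2 the spermine and PBS bars are near each other at 3 h, whereas for Ifitm6 and Ifitm1 the spermine 3 h bar stands between the PBS 3 h bar and the 0 h bars.

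The order of the group means was not the same for each gene. For Ifitm3 and Ifitm2 the order was PBS 3 h, spermine 3 h, spermine 0 h, PBS 0 h, and the neighbours PBS 3 h and spermine 3 h did not differ beyond the spread of their libraries. For Bst2 the order was spermine 3 h, PBS 3 h, spermine 0 h, PBS 0 h, with the first pair again overlapping. Ifitm6 ran PBS 3 h, spermine 3 h, spermine 0 h, PBS 0 h with no overlap between neighbours. Ifitm1 ran PBS 3 h, spermine 3 h, PBS 0 h, spermine 0 h, and its last pair did not overlap but missed the threshold of the test, as did spermine 0 h and PBS 0 h for Ifitm2.

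The first comparison asked what 3 h of IFN-β did in PBS-treated cells. All 5 genes were called higher after 3 h on the deposited scale, although Ifitm2 was lower by 0.21 on the log2 scale after quantile normalization. A gene was called at a Benjamini-Hochberg adjusted p under 0.05 from limma, a linear model of log2(FPKM + 1) fitted to all 11421 genes and 8 libraries, and fold changes on that scale understate the change of low genes such as Ifitm1. Of all tested genes, 24.6% were called higher and 25.0% lower in this comparison. Ifitm6 had the largest log2 change of the 5 members, 1.84 ± 0.11 (SE; limma adjusted p = 1.06e-05), its mean FPKM being 3.80 times the 0 h mean. Bst2 rose by 1.67 ± 0.09 (SE; limma adjusted p = 1.03e-05), 3.20 times its 0 h mean. Ifitm3 rose by 1.55 ± 0.08 (SE; limma adjusted p = 5.37e-06), which in absolute terms added 1093 FPKM, more than the other 4 genes together. Ifitm1 rose by 1.14 ± 0.15 (SE; limma adjusted p = 0.000771) and Ifitm2 by 0.57 ± 0.09 (SE; limma adjusted p = 0.00187).

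The share of tested genes with a higher log2 change ran from 5.03% for Ifitm6 to 17.7% for Ifitm2. Ordered from the highest log2 change, Ifitm6 stood 576th, Bst2 673rd, Ifitm3 768th, Ifitm1 1086th and Ifitm2 2024th of 11421. The median change of the 5 genes was 1.55, against -0.02 over all tested genes. Rescaling to TPM moved the median of all genes by -0.45 in this comparison, and Ifitm2 then changed by 0.09 (limma adjusted p = 0.411), which is 0.56 above the median of all genes under that scaling. The calls of the other 4 genes held under each of 16 other settings.

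With spermine present, the same 3 h of IFN-β again gave calls of higher for all 5 genes on the deposited scale, with Ifitm2 again lower after quantile normalization, by 0.20. The background was 19.7% of tested genes higher and 22.1% lower. Bst2 changed most, by 1.44 ± 0.09 (SE; limma adjusted p = 3.61e-05), and gained 302 FPKM, beside 299 FPKM in PBS. Ifitm3 rose by 1.09 ± 0.08 (SE; limma adjusted p = 5.22e-05) and gained 821 FPKM. Ifitm6, which led the list in PBS, rose by 0.70 ± 0.11 (SE; limma adjusted p = 0.00205), to 1.66 times its 0 h mean. Ifitm1 rose by 0.77 ± 0.15 (SE; limma adjusted p = 0.00693) and Ifitm2 by 0.39 ± 0.09 (SE; limma adjusted p = 0.0133).

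The median change of the 5 genes with spermine was 0.77, against -0.01 over all tested genes. The call of Ifitm2 was lost under TPM (0.05; limma adjusted p = 0.661), without spermine 0 h replicate 2 (0.32; limma adjusted p = 0.0660) and without spermine 3 h replicate 1 (0.29; limma adjusted p = 0.0869). The median of all genes moved by -0.31 under TPM in this comparison, and the calls of the other 4 genes held under each of 16 other settings.

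**Figure D2:**
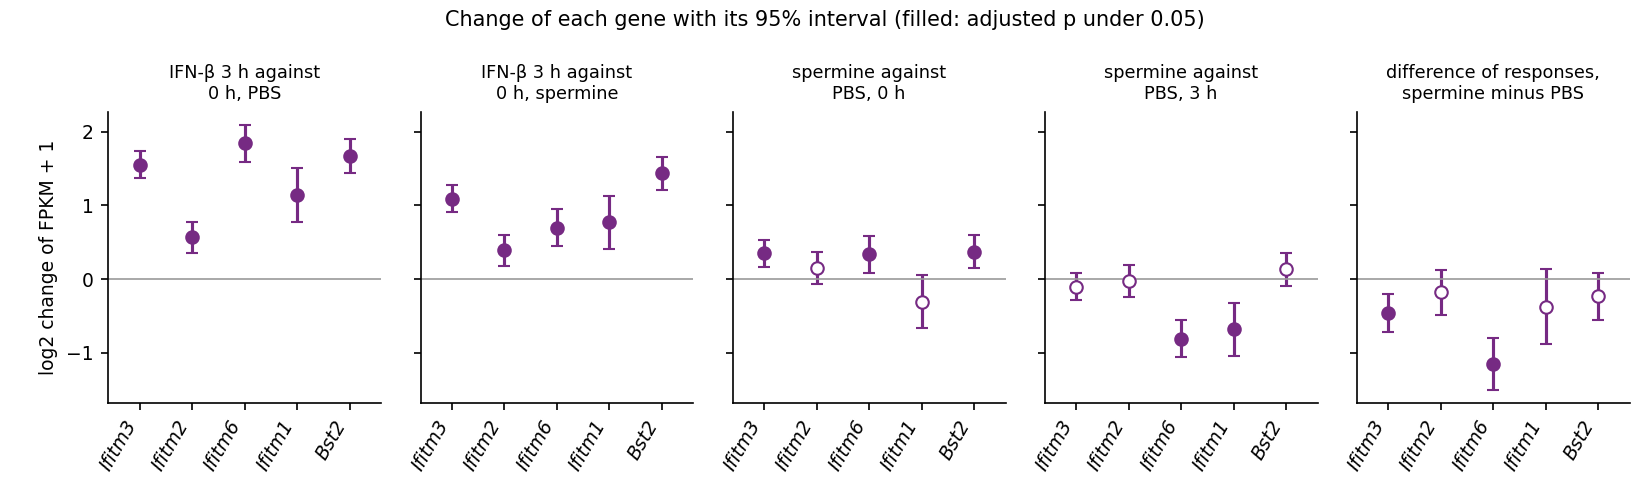
Log2 change of FPKM + 1 for each gene in the 5 comparisons, with 95% intervals from limma; filled points passed the adjusted p threshold of 0.05. All 5 genes lie above 0 in both IFN-β panels on the deposited scale (Ifitm2 lay below 0 in both after quantile normalization), and Ifitm6 lies lowest in the panels of spermine against PBS at 3 h and of the difference.

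Before IFN-β, spermine-treated macrophages had slightly more Ifitm3, Ifitm6 and Bst2 RNA than PBS-treated macrophages on the deposited scale, though Ifitm3 was lower by 0.11 after quantile normalization. Those 3 genes were called higher and no member was called lower, beside 22.0% of tested genes higher and 19.2% lower. Bst2 differed by 0.37 ± 0.09 (SE; limma adjusted p = 0.0197), Ifitm3 by 0.35 ± 0.08 (SE; limma adjusted p = 0.0110) and Ifitm6 by 0.34 ± 0.11 (SE; limma adjusted p = 0.0390). Bst2 averaged 176 ± 2.16 FPKM with spermine and 136 ± 13.2 FPKM with PBS, and Ifitm3 723 ± 41.2 FPKM with spermine and 566 ± 4.15 FPKM with PBS (SD, n = 2 each). Ifitm2 had a difference of 0.15 (95% interval -0.07 to 0.36; limma adjusted p = 0.238). Ifitm1 had a difference of -0.31 (95% interval -0.67 to 0.05; limma adjusted p = 0.152), and was called lower under TPM (-0.71; limma adjusted p = 0.0171).

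These small differences at 0 h depended on the scale and on single libraries. Rescaled to TPM, which moved the median of all genes by -0.31, they were 0.01 for Ifitm3 and for Ifitm6 and 0.02 for Bst2, none called; relative to the median of all genes under that scaling they were 0.30 for Ifitm3, 0.31 for Ifitm6 and 0.32 for Bst2. Without the filter on low values limma gave adjusted p of 0.0813 for Ifitm3, 0.0832 for Ifitm6 and 0.0564 for Bst2. Ifitm3 lost its call without PBS 0 h replicate 1 (0.36; limma adjusted p = 0.0551), without PBS 0 h replicate 2 (0.34; limma adjusted p = 0.0633) and without spermine 0 h replicate 1 (0.29; limma adjusted p = 0.0614). Bst2 lost it without PBS 0 h replicate 1 (0.27; limma adjusted p = 0.115), spermine 0 h replicate 1 (0.38; limma adjusted p = 0.0650) or spermine 0 h replicate 2 (0.36; limma adjusted p = 0.0728). Ifitm6 lost it without any of the 4 libraries compared, at 0.27 to 0.41, and without spermine 3 h replicate 1 (0.34; limma adjusted p = 0.0689) or replicate 2 (0.34; limma adjusted p = 0.0690).

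After 3 h of IFN-β, spermine-treated macrophages had less Ifitm6 and Ifitm1 RNA than PBS-treated macrophages, under the deposited scale, TPM and quantile normalization alike. These 2 genes were called lower and none higher, beside 20.6% of tested genes lower and 19.9% higher. Ifitm6 averaged 28.4 ± 0.605 FPKM with spermine and 50.8 ± 6.85 FPKM with PBS (SD, n = 2 each), a log2 change of -0.81 ± 0.11 (SE; limma adjusted p = 0.00127). The Ifitm6 call held under each of 16 other settings, with changes of -1.03 to -0.67. Ifitm1 averaged 3.48 ± 0.577 FPKM with spermine and 6.18 ± 0.895 FPKM with PBS (SD, n = 2 each), a log2 change of -0.68 ± 0.15 (SE; limma adjusted p = 0.0121). The Ifitm1 call was lost without PBS 3 h replicate 1 (-0.55; limma adjusted p = 0.0656) and without spermine 3 h replicate 1 (-0.55; limma adjusted p = 0.0783).

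For the 3 abundant genes the 3 h levels overlapped between spermine and PBS. Ifitm3 differed by -0.11 (95% interval -0.29 to 0.08; limma adjusted p = 0.312), Ifitm2 by -0.03 (95% interval -0.25 to 0.19; limma adjusted p = 0.817) and Bst2 by 0.13 (95% interval -0.09 to 0.36; limma adjusted p = 0.295). These intervals bound the differences and do not show that the levels were alike. Under TPM, which moved the median of all genes by -0.19, Ifitm3 was called lower with spermine (-0.31; limma adjusted p = 0.0181), which is -0.12 relative to that median, and Bst2 stood at -0.07 under TPM and -0.12 after quantile normalization.

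Because Ifitm6 is also a transcript of other myeloid cells, the marker lists of those cells are given beside it. The summed level of 8 monocyte markers was 12.6 and 13.8 FPKM with spermine at 3 h, 18.5 and 16.9 FPKM with PBS at 3 h, 15.6 and 13.2 FPKM with spermine at 0 h and 7.07 and 6.67 FPKM with PBS at 0 h. Of those markers, 5 reached 1 FPKM, and Ly6c2, Cd177 and Ace did not in any library. Vcan, a proteoglycan of the extracellular matrix, made up most of the monocyte sum at 3 h in PBS, at 11.5 and 10.1 FPKM, against 5.29 and 6.32 FPKM with spermine. The summed level of 10 neutrophil markers was 8.31 and 7.88 FPKM with spermine and 8.89 and 10.2 FPKM with PBS at 3 h. At 0 h it was 9.86 and 7.27 FPKM with spermine and 6.14 and 6.08 FPKM with PBS. The neutrophil sum, like Ifitm6, was thus lower with spermine than with PBS at 3 h and higher at 0 h. Of the 10 markers, 3 reached 1 FPKM, and Ly6g and Retnlg were at 0. Treml4, a receptor of monocytes and macrophages, had 3.65 and 3.58 FPKM with spermine and 0.610 and 0.310 FPKM with PBS at 3 h, and 10.8 and 9.55 FPKM with spermine and 0.568 and 1.02 FPKM with PBS at 0 h. The monocyte sum was lower with spermine than with PBS at 3 h, as Ifitm6 was, while its higher value with spermine at 0 h rested on Treml4. Ccr2, a chemokine receptor of monocytes, was lower with spermine at both times, at 1.36 and 1.41 FPKM against 2.98 and 2.99 FPKM with PBS at 3 h, and at 0.956 and 0.659 FPKM against 3.45 and 2.81 FPKM with PBS at 0 h. The part of these cells in the Ifitm6 result was not tested.

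Bst2 marks plasmacytoid dendritic cells, whose 8 markers summed to 8.76 and 9.54 FPKM with spermine at 3 h, 17.2 and 16.0 FPKM with PBS at 3 h, 4.32 and 3.66 FPKM with spermine at 0 h and 4.51 and 4.56 FPKM with PBS at 0 h. Most of that sum was Tcf4, a transcription factor that other cells also express. The defining markers Siglech, Ccr9 and Pacsin1 stayed below 1 FPKM, and Ly6d, Cd209d and Klk1 were at 0 in all 8 libraries. The sum was lower with spermine than with PBS at 3 h, where the libraries of Bst2 overlapped. Of 5 endothelial markers only Kdr, a growth factor receptor, passed the filter on low values, and it rose with IFN-β: it had 18.9 and 19.6 FPKM with spermine at 3 h, 37.3 and 36.3 FPKM with PBS at 3 h, and 2.09 to 2.43 FPKM at 0 h. The 7 markers of conventional dendritic cells summed to 5.10 to 8.19 FPKM in the 4 libraries at 3 h, and in each of them the sum was higher than in any library at 0 h. Of those markers 2 were tested, Xcr1 and Batf3, and both rose with IFN-β in both treatments, while Flt3, Zbtb46, Clec9a, Cd209a and Itgae stayed below 1 FPKM. Xcr1, a chemokine receptor that marks a subset of these cells, had 6.41 and 5.53 FPKM with spermine at 3 h, 4.34 and 2.97 FPKM with PBS at 3 h, 1.11 and 1.05 FPKM with spermine at 0 h and 0.118 and 0.0891 FPKM with PBS at 0 h. These markers moved with IFN-β as the 5 genes did, and the part of such cells in the results was not tested.

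The difference between the IFN-β response with spermine and that with PBS was tested directly as an interaction. Ifitm6 and Ifitm3 were called, both with a smaller rise under spermine on the deposited scale, although for Ifitm3 the difference was 0.08 after quantile normalization. No member was called higher, beside 5.82% of tested genes higher and 7.75% lower. For Ifitm6 the difference was -1.15 ± 0.15 on the log2 scale (SE; limma adjusted p = 0.00565), and 98.0% of tested genes had a higher value. It was called under each of 15 other settings, at -1.28 to -1.01 with limma adjusted p of 0.00287 to 0.0333. The fold over 0 h was 1.66 with spermine and 3.80 with PBS, and the FPKM added were 11.3 with spermine and 37.4 with PBS.

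For Ifitm3 the difference was -0.46 ± 0.11 (SE; limma adjusted p = 0.0387). It missed the threshold under TPM (-0.32; limma adjusted p = 0.115), without the filter on low values (-0.46; limma adjusted p = 0.184), without the intensity trend (-0.46; limma adjusted p = 0.0574), and when any of 7 libraries was left out, all but spermine 0 h replicate 2, at -0.54 to -0.38 with limma adjusted p of 0.0606 to 0.139. Ifitm1 had a difference of -0.37 (95% interval -0.89 to 0.14; limma adjusted p = 0.300), Bst2 of -0.23 (95% interval -0.55 to 0.08; limma adjusted p = 0.294) and Ifitm2 of -0.18 (95% interval -0.48 to 0.13; limma adjusted p = 0.400). Whether Ifitm6 differed from Ifitm3 or Bst2 in this was not tested.

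**Figure D3:**
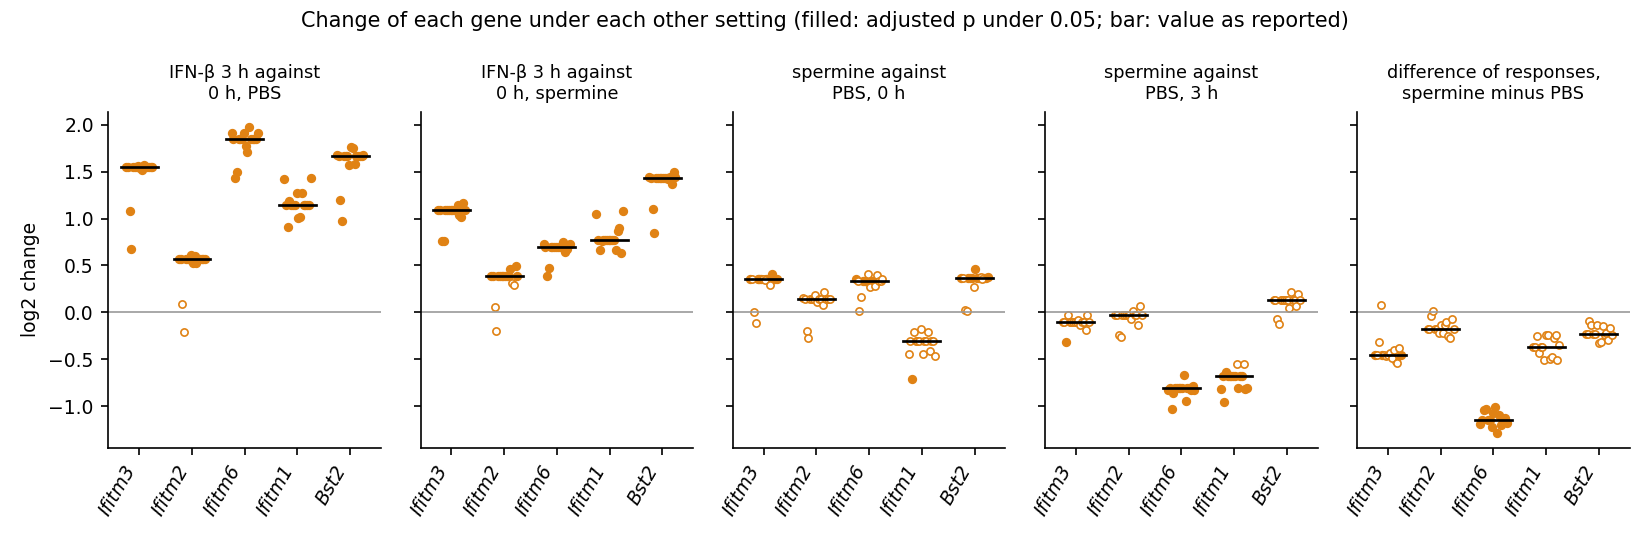
Log2 change of each gene in the 5 comparisons under each other setting, with filled points for an adjusted p under 0.05 and the bar at the value as reported. The points of Ifitm6 are all filled and negative for spermine against PBS at 3 h and for the difference, whereas those of Ifitm3 for the difference are mostly open and 1 lies above 0.

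The make-up of the Ifitm transcripts is given as values with no test, and Ifitm3 had a higher share of them in each 3 h library than in any 0 h library. Summed over the 4 Ifitm genes, the level was 1829 ± 146 FPKM with spermine at 3 h, 1975 ± 41.2 FPKM with PBS at 3 h, 935 ± 55.3 FPKM with spermine at 0 h and 756 ± 12.9 FPKM with PBS at 0 h (SD, n = 2 each). Ifitm3 made up 84.4% of that sum with spermine and 84.0% with PBS at 3 h, and 77.3% with spermine and 74.9% with PBS at 0 h. These shares do not depend on the scaling of a library, since all 4 genes share it. Ifitm6 made up 1.56 ± 0.0910% with spermine and 2.57 ± 0.293% with PBS at 3 h, and 1.84 ± 0.00157% with spermine and 1.77 ± 0.103% with PBS at 0 h (SD, n = 2 each). The ratio of Bst2 to Ifitm2 was 1.89 with spermine and 1.68 with PBS at 3 h, and 0.911 with spermine and 0.783 with PBS at 0 h. By FPKM, Bst2 thus passed Ifitm2 in mean level after IFN-β in both treatments. Since many stretches of Ifitm2 recur in other genes, this ranking and the shares of the Ifitm sum are as uncertain as the Ifitm2 level. Reads of the 5 genes together were 0.141% of all rebuilt reads with spermine and 0.156% with PBS at 3 h, and 0.0838% with spermine and 0.0816% with PBS at 0 h.

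The other annotated Ifitm genes of the list were not expressed at a level that could be tested. Ifitm5, known from bone-forming cells, had 10 reads at most in a library, Ifitm10 had 11 at most and Ifitm7 had 1 at most. None of the 3 reached 1 FPKM in any library, so a change was not detectable at this depth.

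Genes that act at the same steps of infection were set beside the members: 20 other restriction factors of viral entry, membranes and release, all of them tested. With PBS, 16 were called higher and 1 lower after IFN-β, with a median change of 2.18. With spermine 15 were called higher and 1 lower, with a median of 2.49. Of all tested genes, 24.6% were called higher and 25.0% lower with PBS, and 19.7% higher and 22.1% lower with spermine. Under TPM 5 of the 20 were called lower with PBS and 3 with spermine, beside 6314 and 5022 of all 11421 tested genes. Rsad2, or viperin, which disturbs budding membranes and viral replication, rose by 10.19 with PBS and 9.06 with spermine, and Mx1, a GTPase that traps viral nucleoproteins, by 8.68 with PBS and 7.80 with spermine. The medians of the Ifitm genes and Bst2, 1.55 with PBS and 0.77 with spermine, were below those of this list. At 3 h, 12 of the 20 were called lower and 2 higher with spermine than with PBS, at a median of -0.45. Of all tested genes 20.6% were called lower and 19.9% higher. The largest changes of the list at 3 h were in Ch25h, which makes the antiviral sterol 25-hydroxycholesterol, at -1.22, and Ncoa7, whose interferon-induced form acts on endosomal acidification, at -1.09.

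At 0 h, 7 of these 20 were called higher and 5 lower with spermine, at a median of 0.15. Of all tested genes 22.0% were called higher and 19.2% lower. Under TPM 3 of the 20 were called higher and 9 lower, beside 1187 and 4743 of all 11421 tested genes. Plscr1, a phospholipid scramblase with antiviral activity, fell by 1.72 and Trim21, an antibody-binding ubiquitin ligase, fell by 1.05. The difference of the responses was called for 8 lower and 2 higher, with a median of -0.24, beside 7.75% of tested genes lower and 5.82% higher. Ncoa7, at -1.80, and Ch25h, at -1.73, had the largest absolute differences among those called.

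Of 12 genes of type I interferon signalling, 11 rose and 1 fell with IFN-β in PBS (median 3.00), and 9 rose with none called lower with spermine (median 3.13). The shares of all tested genes called in each comparison are those given beside the restriction factors. Socs1, a feedback inhibitor of Janus kinases, rose by 7.43 in PBS, and Usp18, which removes ISG15 and damps the receptor, rose by 6.92 in PBS and 6.83 with spermine. Irf1, a transcription factor that drives antiviral genes, rose by 6.21 with spermine. At 0 h, 8 of the 12 were lower and 1 higher with spermine (median -0.54), led by Irf8 at -1.22 and Stat2 at -1.10, both transcription factors of this pathway. At 3 h, 6 were lower and 2 higher (median -0.23), led by Socs1 at -1.42. The difference of the responses was called higher for 6 and lower for 1 (median 0.17), with Irf1 at 1.83 and Socs1 at -1.79. After quantile normalization the number of the 12 called lower was 4, beside 916 of all 11421 tested genes.

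A further list held 25 genes for the lipid attachment, uptake and sorting of Ifitm and tetherin proteins and for signalling by tetherin, of which 24 were tested. With IFN-β in PBS, 3 rose and 5 fell (median 0.05), and with spermine 2 rose and 4 fell (median -0.03). Of all tested genes 24.6% were called higher and 25.0% lower in PBS, and 19.7% higher and 22.1% lower with spermine. Under TPM 18 of the 24 were called lower in PBS and 17 with spermine, beside 6314 and 5022 of all 11421 tested genes. Abhd16a, an enzyme that removes palmitate from proteins, rose by 1.23 with PBS and 0.97 with spermine. Osbp, a sterol transporter, fell by 0.68 in PBS, and Zdhhc20, a palmitoyltransferase of IFITM3, fell by 0.71 with spermine. Against PBS, 10 were higher and 1 lower with spermine at 0 h (median 0.25), and 11 were higher and 1 lower at 3 h (median 0.21). Of all tested genes 22.0% were called higher and 19.2% lower at 0 h, and 19.9% higher and 20.6% lower at 3 h. Under TPM 2 of the 24 were called higher and 6 lower at 0 h, beside 1187 and 4743 of all tested genes. At 3 h, 4 were called higher and 6 lower under TPM, beside 1339 and 3675. Vapa, the membrane anchor that binds Osbp and, in human cells, IFITM3, differed most, at 1.08 at 0 h and 0.92 at 3 h, on the deposited scale, followed by Tab1, an activator of the kinase TAK1, at -0.73 at 0 h and Zdhhc20 at 0.56 at 3 h. For the difference of the responses limma called none of the 24, beside 5.82% of tested genes higher and 7.75% lower.

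**Figure D4:**
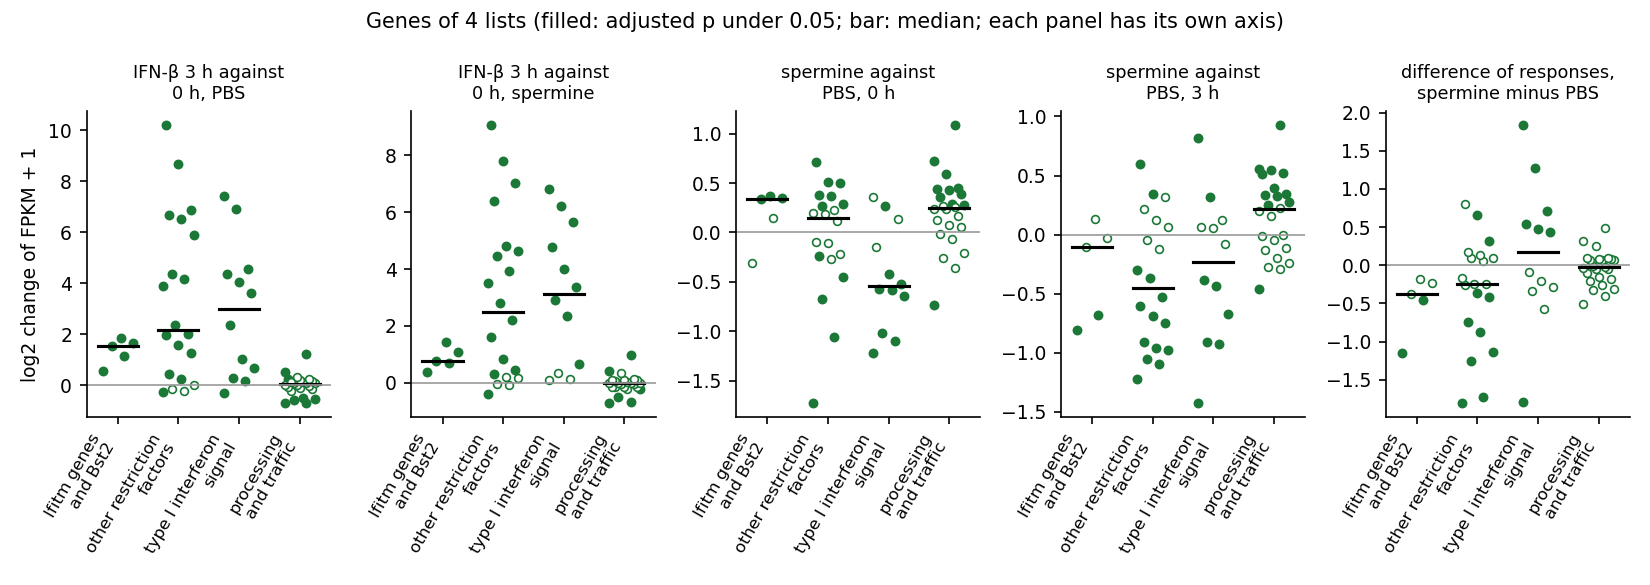
Log2 change of FPKM + 1 of the Ifitm genes and Bst2 and of the tested genes of 3 lists in the 5 comparisons (each panel with its own axis); filled points passed the adjusted p threshold and bars are medians. After IFN-β the median of the members lies between those of the restriction factors and signalling genes, which are over 2, and that of the processing and traffic genes, near 0. Single genes of the lists overlap.

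Genes around the members were examined for changes of the same size. Within 100 kb of an Ifitm gene the table held 18 other genes, of which 5 were tested. After IFN-β 3 of these were called higher in PBS, with changes of -0.04 to 0.70, and 3 with spermine, with changes of 0.16 to 0.59. Of all tested genes 24.6% were called higher in PBS and 19.7% with spermine. Pgghg, a glycosidase gene and the nearest tested gene to Ifitm2 outside the family, changed by 0.70 in PBS and 0.59 with spermine, above the change of Ifitm2 itself, while Ifitm1, Ifitm3 and Ifitm6 all stood above it. The other tested genes were Psmd13, Ric8a, Sirt3 and the pseudogene Gm15542. With spermine against PBS, Psmd13 was higher (0.38) and Sirt3 (-0.47), Pgghg (-0.40) and Ric8a (-0.24) were lower at 0 h, and Gm15542 was higher (0.90) and Pgghg lower (-0.51) at 3 h. The background at 0 h was 22.0% of tested genes higher and 19.2% lower, and at 3 h 19.9% higher and 20.6% lower. For the difference of the responses limma called none of the 5, at -0.19 to 0.63, beside 5.82% of tested genes higher and 7.75% lower.

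Around Bst2, 10 of 17 genes were tested. Their changes with IFN-β were -0.64 to 0.36 in PBS, with 1 called higher and 2 lower, and -0.23 to 0.92 with spermine, with 2 called higher. Of all tested genes 24.6% were called higher and 25.0% lower in PBS, and 19.7% higher with spermine. No tested neighbour came near Bst2 in PBS, and with spermine Tmem221 changed by 0.92. Dda1, a ubiquitin ligase subunit, was higher with spermine than with PBS, by 0.88 at 0 h and 0.79 at 3 h. At 0 h Gtpbp3 (-0.74), Tmem221 (-0.74) and Colgalt1 (-0.51) were lower with spermine. The background for spermine against PBS was 22.0% of tested genes higher and 19.2% lower at 0 h, and 19.9% higher and 20.6% lower at 3 h. The difference of the responses was called for Colgalt1 alone of the 10, at 0.65 (limma adjusted p = 0.00868), beside 5.82% of tested genes higher and 7.75% lower. The other tested genes were Abhd8, Ano8, Mrpl34, Mvb12a, Pgls and Slc27a1.

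**Figure D5:**
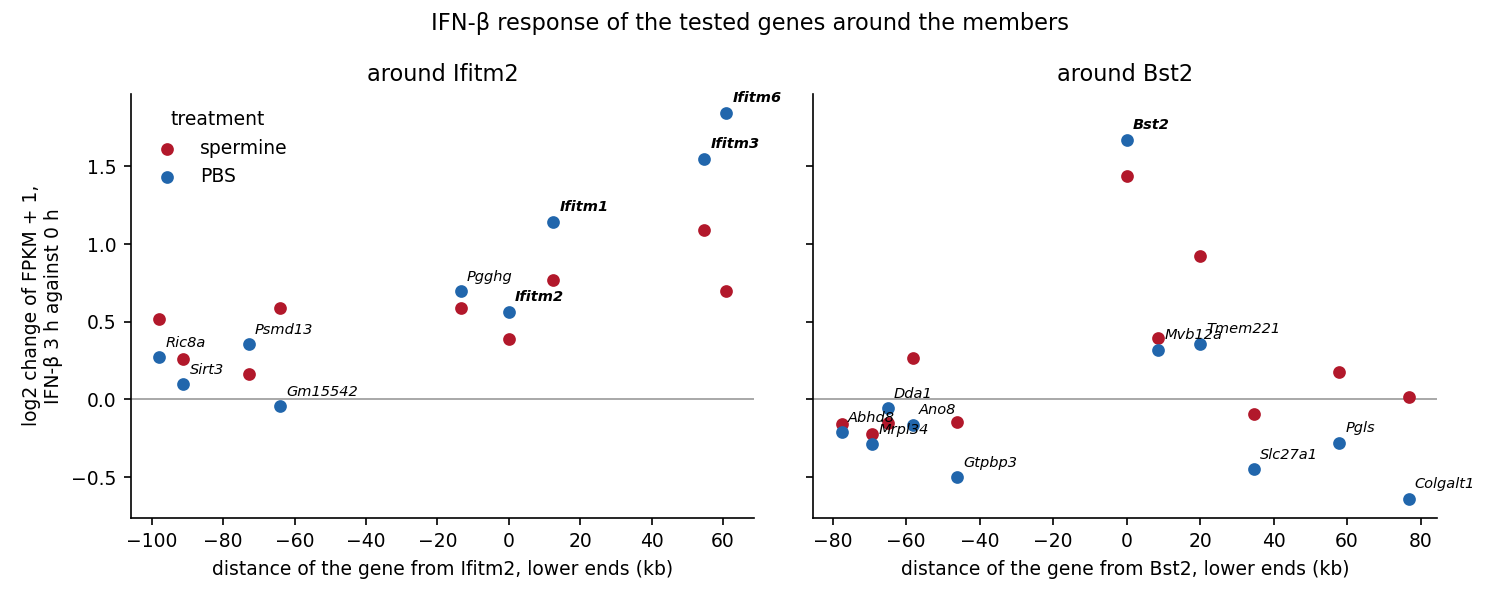
Log2 change of FPKM + 1 after 3 h of IFN-β with spermine and with PBS for the tested genes around Ifitm2 and around Bst2, against the distance in kb between the lower ends of the genes. Bst2 stands above each of its tested neighbours in both treatments, and Ifitm3 and Ifitm6 above each tested neighbour that is not an Ifitm gene.

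The genes whose pattern over the 8 libraries was most like that of each member were found by the root mean square difference of log2(FPKM + 1), each gene centred on its own mean, among 9810 protein-coding genes. For Ifitm6 they were Cep85l at 0.116, Bfar, a membrane protein that inhibits apoptosis, at 0.119 and Ankib1 at 0.127. For Ifitm3 they were Arf4, a GTPase of vesicle traffic, at 0.0579, Tox4 at 0.0785 and Ankrd17 at 0.0883. For Ifitm2 they were the splicing factor gene Prpf31 at 0.0534, the adenosine deaminase gene Ada at 0.0589 and Mpp7 at 0.0650. For Ifitm1 they were Ttc9c at 0.111, Rcn1 at 0.119 and Rnf214 at 0.122. For Bst2 they were Chmp4b, a subunit of the ESCRT machinery, at 0.0533, Triobp at 0.0824 and the signalling adaptor gene Pik3ap1 at 0.0832. Among the members, Bst2 and Ifitm3 were the closest pair, at 0.167, with Ifitm3 the 24th nearest gene to Bst2. Ifitm6 was 0.259 from Ifitm3, and Ifitm2 and Bst2 were the farthest pair at 0.554. All genes share the libraries and their scaling, and closeness of pattern says nothing of control.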

How the data were processed

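Poly(A)-selected RNA was sequenced in 8 libraries of mouse bone marrow-derived macrophages. The submitters' processing notes name the builds GRCm38 and mm10 and, in no stated order, featureCounts 1.5.0-p3, HISAT2 2.0.5, CASAVA 1.8, DESeq2 1.20.0 and fastp, and the authors deposited a table of FPKM per gene. Whether counting used strand is not given in these sources. Samples were grouped by the treatment label. Genes at 1 FPKM or more in at least 2 libraries were kept, and log2(FPKM + 1) was fitted with group means in limma 3.58.1 (R 4.3.3) with 4 residual and 2.83 prior degrees of freedom, an intensity trend and Benjamini-Hochberg adjustment over all genes kept. The fit was tried on simulated counts for IFN-β in PBS alone, with few genes changed. That trial does not bear on the other comparisons or on the scaling. Reads were rebuilt from FPKM, gene length and each library's step, for limma voom as an alternative. Depth is given as rebuilt reads. Sequences were read with Python 3.11.15 and Biopython 1.88 from RefSeq promoter windows and GENCODE transcripts. The genes and all lists were chosen with earlier results of these data known. From each list the 2 genes with the largest absolute change among those called were named in each comparison, apart from 1 that is not reported here, and for each member the 3 genes nearest in pattern.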

Additional observations from a re-analysis of the deposited data

Results flagged for a closer look

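The IFN-β response of Ifitm6 differed between spermine and PBS by the test of the difference itself, at -1.15 on the log2 scale (spermine minus PBS; limma adjusted p = 0.00565). Both libraries with spermine at 3 h lay below both with PBS at 3 h.

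The response of Ifitm3 also differed, at -0.46 (limma adjusted p = 0.0387), a value that missed the threshold in 11 of 15 other settings.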

How the results depend on the processing

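Of 395 values of the 5 genes under other settings, 345 kept their direction and their side of the threshold, 37 lost the call, 2 gained it and 11 changed sign, and 12 of 25 values kept direction and call throughout; the cause of the changes was not tested. The number of members called for spermine against PBS at 0 h, 3 as reported, was 0 without the filter on low values and 0 after quantile normalization. It was 1 under TPM, which was Ifitm1, called lower and not among those 3. At 3 h it was 1 to 2 with 1 library left out, against 2. For the difference of the responses it was 1 without the filter, under TPM, after quantile normalization and without the trend, and 1 to 2 with 1 library left out, against 2. The value changed sign after quantile normalization for Ifitm2 with IFN-β in PBS (-0.21) and with spermine (-0.20), for Ifitm2 (-0.27) and Ifitm3 (-0.11) with spermine at 0 h, for Bst2 with spermine at 3 h (-0.12) and for the difference in Ifitm2 (0.0120) and Ifitm3 (0.0828). Under TPM it changed sign for Ifitm2 with spermine at 0 h (-0.20) and for Bst2 with spermine at 3 h (-0.0725). With 1 library left out, Ifitm2 with spermine at 3 h was -0.131 to 0.0716, above 0 without replicate 2 of PBS 3 h (0.0093) and of spermine 3 h (0.0716).

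Over all tested genes, the number called with 1 library left out was 2999 to 4897 for spermine at 0 h (4706 as reported; lowest without PBS 0 h replicate 2), 2912 to 4645 at 3 h (4626; lowest without spermine 3 h replicate 1) and 520 to 1671 for the difference (1550; lowest without PBS 0 h replicate 2). A group left with 1 library was taken to vary like the others. Higher calls were 49.6% of all calls with IFN-β in PBS (21.1% under TPM, 36.6% after quantile normalization), 47.1% with IFN-β and spermine (21.5% under TPM, 33.6% after quantile normalization), 53.3% with spermine at 0 h (20.0% under TPM), 49.2% at 3 h (26.7% under TPM) and 42.9% for the difference (67.1% under TPM).

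The titles mark the libraries of each group BM1 and BM2, without saying whether a mark stands for an origin shared across groups. Replicate differences of groups correlated at -0.126 to 0.371 over genes. With the replicate block, 5956 genes were called for IFN-β in PBS against 5661, 1813 for the difference against 1550, and no member gained or lost a call. Both planned count tests were not run, because the table holds FPKM; limma voom on rebuilt reads was added after seeing the data and lost the call of Ifitm6 for spermine at 0 h (0.36; adjusted p = 0.0689). Depth limits Ifitm1, with 26 to 104 reads per library.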
